A study of Mus musculus with 8 samples.

Results

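TGF-β ligands, their receptors and the SMAD proteins were examined for SOX9 occupancy in the mouse spinal cord. They were chosen by name as 10 core genes of the pathway, namely Tgfb1, Tgfb2, Tgfb3, Ltbp1, Tgfbr1, Tgfbr2, Smad2, Smad3, Smad4 and Smad7, out of 21853 protein-coding genes that were given the same windows. SOX9, a transcription factor of astrocytes and ependymal cells, was profiled by CUT&Tag, in which an antibody directs a transposase to cut and tag DNA next to the bound protein.

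TGF-β ligands are secreted in a latent complex that LTBP1 tethers to the extracellular matrix. Once released, they bring the type II receptor TGFBR2 together with the type I receptor TGFBR1, which phosphorylates SMAD2 and SMAD3. These join SMAD4 and act on genes in the nucleus, while SMAD7 dampens the receptor, and after injury to the central nervous system the pathway is known for its part in glial scarring and fibrosis.

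Wild-type (WT) C57BL/6 mice of both sexes were sampled uninjured or at 1 day after a contusion of the thoracic cord (1 dpi), and 5-mm segments around the injury, or at the matching level, were collected. Animals were pooled for each condition, nuclei were sorted on the DNA dye 7AAD, and the same number of nuclei went into each sample. The 8 libraries formed 4 groups of 2, with 1 male and 1 female library in each of SOX9 uninjured, SOX9 1 dpi, control uninjured and control 1 dpi. Controls were 20% of the nuclei of each sample, taken through the same steps with the secondary antibody only. No label ties a library to separate animals beyond its sex, so the spread between libraries also holds sex and technical variation. The methods also describe NEUN or SOX10 stains before sorting, and which nuclei were kept for these libraries is not stated. Since the segments hold several cell types, a change in cell numbers and a change in binding per cell cannot be told apart.

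The libraries differed in depth. The uninjured libraries held 1901433 fragments in the male and 7248962 in the female, and the 1 dpi libraries held 2538725 in the male and 2396777 in the female. All levels below are therefore mean coverage of a window divided by the mean of that library over the autosomes, so that 1 is the genome average. The uninjured pair stood apart at promoters: over the 17981 genes tested, the median promoter level was 3.67 in the uninjured male, the lowest, and 6.43 in the uninjured female, the highest, against 4.90 in the 1 dpi male and 4.25 in the 1 dpi female. Gene bodies were closer to each other, at 1.56, 1.67, 1.595 and 1.58 in the same order.

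Controls were shallow, with 22848 and 47049 fragments in the uninjured male and female and 53341 and 10948 at 1 dpi. Summed over the 10 loci, each gene with 20 kb on either side and 1337.1 kb in all, control coverage was 1.36, 1.52, 1.32 and 2.02 times the library mean in that order. The SOX9 libraries reached 1.42, 1.52, 1.598 and 1.53. Exact Poisson 95% intervals of the controls, which like the floors given below cover counting error only, ran from 0.780 to 2.22, from 1.06 to 2.115, from 0.932 to 1.81 and from 1.07 to 3.45. Every SOX9 value lay within the intervals of all 4 controls. Of the control fragments in the loci, 15 of 16, 32 of 35, 35 of 38 and 12 of 13 had the start and the end of fragments in a SOX9 library. Over the genome this held for 82.27% to 93.55% of the control fragments that overlapped no other, and for 0.02284% to 0.0428% of them after a shift by 1 kb. Whether they came from the control nuclei was not tested, so the controls were not used as a separate background, and coverage of these loci above background was not measured.

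A set of 3 windows was compared between SOX9 1 dpi and SOX9 uninjured: the promoter, within 1 kb of the start of the principal transcript; the gene body without it; and the flanks, 20 kb on each side. Values of 4 libraries are given below in the order uninjured male, uninjured female, 1 dpi male and 1 dpi female. In each window all 10 members passed the minimum mean level of 0.5. None was called at an adjusted p under 0.05 by limma, and at an unadjusted p under 0.05 there were 0 members in promoters, 0 in gene bodies and 1 in flanks. Among all genes, limma called 0.0111% of promoters higher and 0% lower, 0% of gene bodies in either direction, and 0.0406% of flanks higher and 0% lower at 1 dpi. In simulated data this gene-body fit recovered no change. Gene bodies that were not called, here and below, are therefore not shown to be unchanged. At an unadjusted p under 0.05 limma counted 162 of 17981 promoters higher and 167 lower (0.901% and 0.929%), 400 of 16632 gene bodies higher and 437 lower (2.41% and 2.63%), and 326 of 17228 flanks higher and 218 lower (1.89% and 1.27%). The median promoter change of all genes was -0.07, but -0.45 without the uninjured male library and 0.28 without the uninjured female, so the sign of a small promoter change rested on the uninjured pair. An exact permutation test of 2 against 2 libraries cannot go below p = 0.33. Standard errors given below for promoters and flanks follow the trend over all genes at a given level, not the spread of the gene itself.

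Groups that did not overlap were also counted. Both 1 dpi libraries lay above both uninjured libraries at 1 member promoter, 2 gene bodies and 2 flanks, and below them at 0 promoters, 0 gene bodies and 1 flank. Over all genes tested, 8.27% of promoters, 15% of gene bodies and 11.9% of flanks lay above, and 14.8%, 18.3% and 15.4% lay below. With 10 members these counts are near that background. The median log2 change of the members was 0.06 in promoters, 0.06 in gene bodies and -0.0011 in flanks, beside -0.07, -0.02 and -0.04 over all genes.

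**Figure D1:**
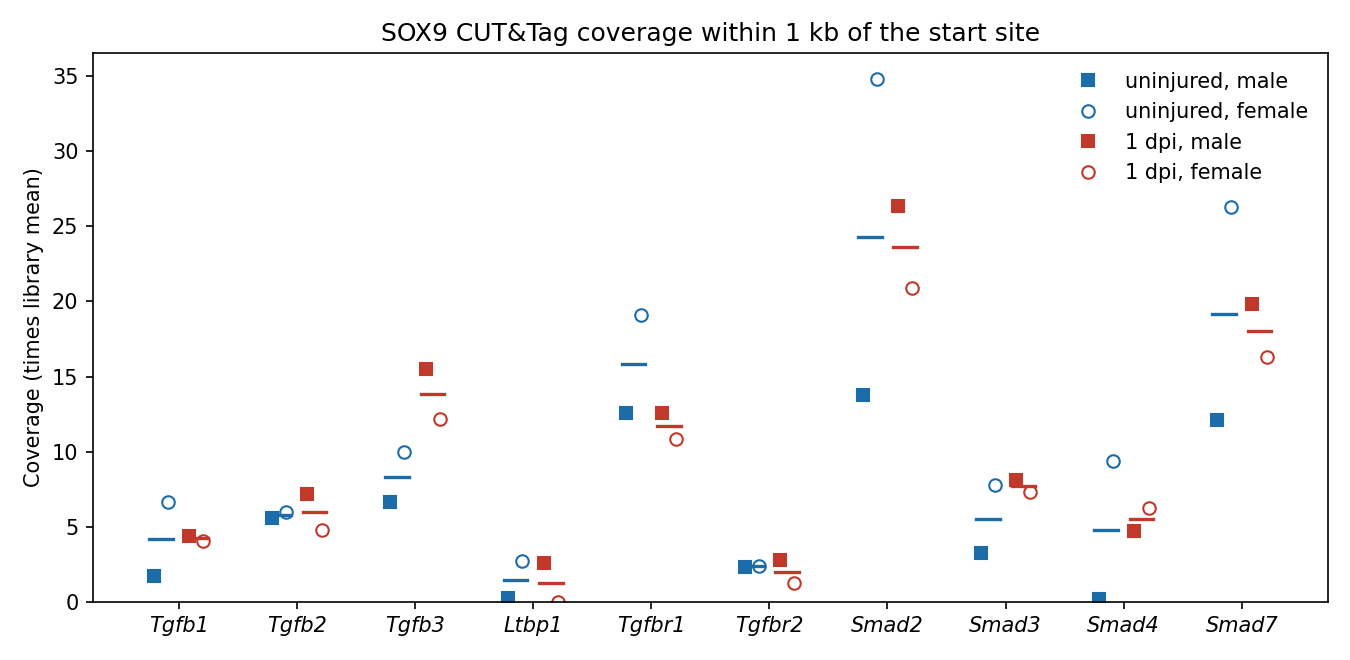
SOX9 CUT&Tag coverage within 1 kb of the start site of each of the 10 genes, in times the library mean. Squares are male and circles female libraries, blue is uninjured and red 1 dpi, and bars are means of 2; Tgfb3 is the gene whose groups do not overlap, and Smad2 and Smad7 hold the largest means.

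Among the ligands, Tgfb3 carried the most promoter coverage. Its promoter, at the start of a gene on the minus strand of chr12:86056745-86079041 (mm10), measured 6.68 in the uninjured male, 9.97 in the uninjured female, 15.5 in the 1 dpi male and 12.2 in the 1 dpi female. Both 1 dpi libraries were above both uninjured libraries. They averaged 13.8 ± 2.34 against 8.32 ± 2.33 (SD of 2 libraries each), a log2 change of 0.72 with a standard error of 0.66 and an interval from -0.58 to 2.02 (limma adjusted p = 1.00). These values rested on 10, 66, 33 and 23 fragments that began in the window, and the log2 change was 0.44 without the uninjured male and 1.13 with a promoter of 0.5 kb to each side. The Tgfb3 gene body followed the same order, at 2.03, 2.57, 3.38 and 3.14, with a log2 change of 0.43 ± 0.20 (SE; limma adjusted p = 0.993). Tgfb3 flanks, which hold the start of the coding gene Ift43, overlapped, at 3.18, 2.73, 3.98 and 2.91. Their log2 change was 0.18, and ranged from -0.0181 to 0.67 over the other settings.

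Tgfb2, at chr1:186622792-186705989, had even promoter levels of 5.58, 5.98, 7.21 and 4.81. The 1 dpi pair enclosed the uninjured pair, and the gene body was flat as well, from 1.12 to 1.27 over the 4 libraries. Its flanks were the only member window with an unadjusted p under 0.05 in limma, and measured 1.36 and 1.00 in the uninjured and 1.51 and 1.82 in the 1 dpi libraries, male before female. The groups did not overlap, with a log2 change of 0.37 ± 0.18 (SE; limma adjusted p = 1.00) and of 0.22 without the uninjured female. The side beyond the 3′ end measured 0.432 and 0.681 in the uninjured and 1.03 and 1.29 in the 1 dpi libraries, on 9, 39, 21 and 23 fragments, and did not overlap either. Before the start the flank measured 2.28, 1.33, 1.998 and 2.35, and the groups overlapped.

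Tgfb1, the ligand best known from macrophages and platelets, lies at chr7:25687002-25705077 among close neighbours. Its promoter measured 1.70, 6.63, 4.39 and 4.06. The 2 uninjured libraries were the lowest and the highest of the 4, and the male value rested on 3 fragments, for which the exact Poisson interval runs from 0.619 to 8.77 fragments. Flank coverage was high, at 3.55, 6.21, 4.96 and 3.64, and the groups overlapped. The 20 kb on either side hold the starts of 3 other coding genes, B9d2, Ccdc97 and Tmem91. Ltbp1, at chr17:75005568-75392512, had the least promoter coverage of the members by the mean of the 4 libraries. Smad4 was lower in the uninjured male (0.213) and Tgfbr2 in the uninjured female (2.42). At the start of the principal Ltbp1 transcript, at 75178911, coverage measured 0.253, 2.71, 2.58 and 0, and the 0 allows up to 1.59 by the 3-fragment floor. At the first start of the gene, at 75005568, it measured 0.492, 2.06, 2.132 and 2.62, where both 1 dpi libraries were the higher ones by little over the uninjured female. The gene body stayed below the genome average in all 4 libraries, from 0.520 to 0.678.

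The receptor genes differed from each other in level. Tgfbr1, at chr4:47353222-47414931, had promoter levels of 12.6, 19.1, 12.6 and 10.9. The uninjured female was the highest library and the male libraries had equal values, with means of 15.8 ± 4.62 and 11.7 ± 1.21 (SD, n = 2 each) and a log2 change of -0.39 ± 0.67 (SE; limma adjusted p = 1.00). It was -0.69 without the uninjured male and -0.10 without the uninjured female. The gene body was below the genome average, at 0.586, 0.683, 0.507 and 0.698. The Tgfbr2 promoter, at the end of chr9:116084293-116175360 on the minus strand, was far lower at 2.31, 2.42, 2.76 and 1.25, on 4, 15, 3 and 4 fragments. Its gene body was near the genome average in every library, from 0.923 to 1.09, and neither window separated the groups.

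The receptor-activated SMADs showed contrasting profiles. Smad2, at chr18:76241580-76310963, had the highest promoter mean of the 10 genes, with 13.7, 34.8, 26.4 and 20.9. The 2 uninjured libraries bracketed the 1 dpi libraries. Another coding start about 20 kb into the gene, at 76261121, measured 1.20, 1.12, 0 and 0, where the zeros allow up to 1.498 in the male and 1.59 in the female by the same floor. The start at 76262492, whose window overlaps that one, measured 0.132, 0.200, 0.614 and 0. Smad2 flanks were the only member window with both 1 dpi libraries lower, at 1.49, 2.22, 1.39 and 1.37 (log2 change -0.30 ± 0.19, SE; limma adjusted p = 1.00). Their size rested on the uninjured pair, at -0.53 without the male and -0.078 without the female.

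Smad3, at chr9:63646767-63757994 on the minus strand, was covered along its body. The gene body measured 2.19, 1.95, 2.65 and 2.72, on 163, 565, 293 and 270 fragments. Both 1 dpi libraries were above both uninjured libraries, with means of 2.07 ± 0.171 and 2.69 ± 0.0536 (SD, n = 2 each) and a log2 change of 0.31 ± 0.17 (SE; limma adjusted p = 0.993), which was 0.21 with a pseudocount of 2. The promoter measured 3.27, 7.80, 8.14 and 7.32, with the uninjured male alone at the low end, and the flanks overlapped at 1.86, 1.78, 2.111 and 1.54.

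Markers of cell types were read in the same windows. The summed body level of the 7 astrocyte markers was 10.3, 9.87, 14.8 and 11.96, with Gfap the highest gene at 3.03, 3.24, 5.64 and 4.99 and no marker at 0 in any SOX9 library. For the 5 microglia and macrophage markers the sum was 12.9, 12.8, 13.8 and 15.1, with none at 0. Aif1 was the highest of them by mean, although Cx3cr1 was higher in the 1 dpi male. Both sums were higher in both 1 dpi libraries. Without Gfap the astrocyte sum was 7.22, 6.63, 9.13 and 6.98 and the groups overlapped, while without Aif1 the microglia sum was 8.65, 7.68, 10.2 and 9.57 and they did not. At promoters the astrocyte sum was 33.5, 31.3, 43.7 and 31.8, with 1 gene higher and 3 lower of 7 without overlap (beside 8.27% and 14.8% of all genes), and the microglia sum overlapped as well. The endothelial and perivascular and the leukocyte promoter sums were lower in both 1 dpi libraries. Over all 31 tested marker promoters, 2 were higher and 10 lower without overlap (6.45% and 32.3%). In gene bodies 3 of 7 astrocyte and 3 of 5 microglia markers were higher without overlap, and 4 of 5 neuron markers lower. Over all markers, 8 and 8 of 31 bodies were higher and lower (25.81% each), beside 15% and 18.3% of all genes. In flanks the astrocyte sum was 9.77, 9.50, 11.97 and 11.7, and the microglia sum overlapped at 10.5, 14.3, 11.3 and 9.80. In limma 0 of the 31 marker gene bodies tested were called. At an unadjusted p under 0.05 in limma, 1 was higher and 1 lower (3.23% each, beside 2.41% and 2.63% of all gene bodies). The part of these cell types in the Tgfb3 and Smad3 values was not tested. Summed body levels of the other lists overlapped between the groups or were lower at 1 dpi: oligodendrocyte lineage 28.4, 38.8, 29.9 and 27.0 (highest gene by mean Sox10), neuron 7.98, 9.80, 7.68 and 7.00 (Rbfox3), endothelial and perivascular 7.51, 7.39, 5.69 and 6.97 (Pdgfrb), ependymal 11.9, 16.7, 18.3 and 13.4 (Foxj1), and blood leukocyte 2.08, 2.03, 0.812 and 1.65 (Cd3e). Among leukocyte markers, the Ly6c2 body was at 0 in 2 of the 4 libraries and its promoter in 2, the S100a9 body in 1 and its promoter in 4, and the S100a8 promoter in 1. The Rgs5 promoter, of the perivascular list, was at 0 in 2.

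**Figure D2:**
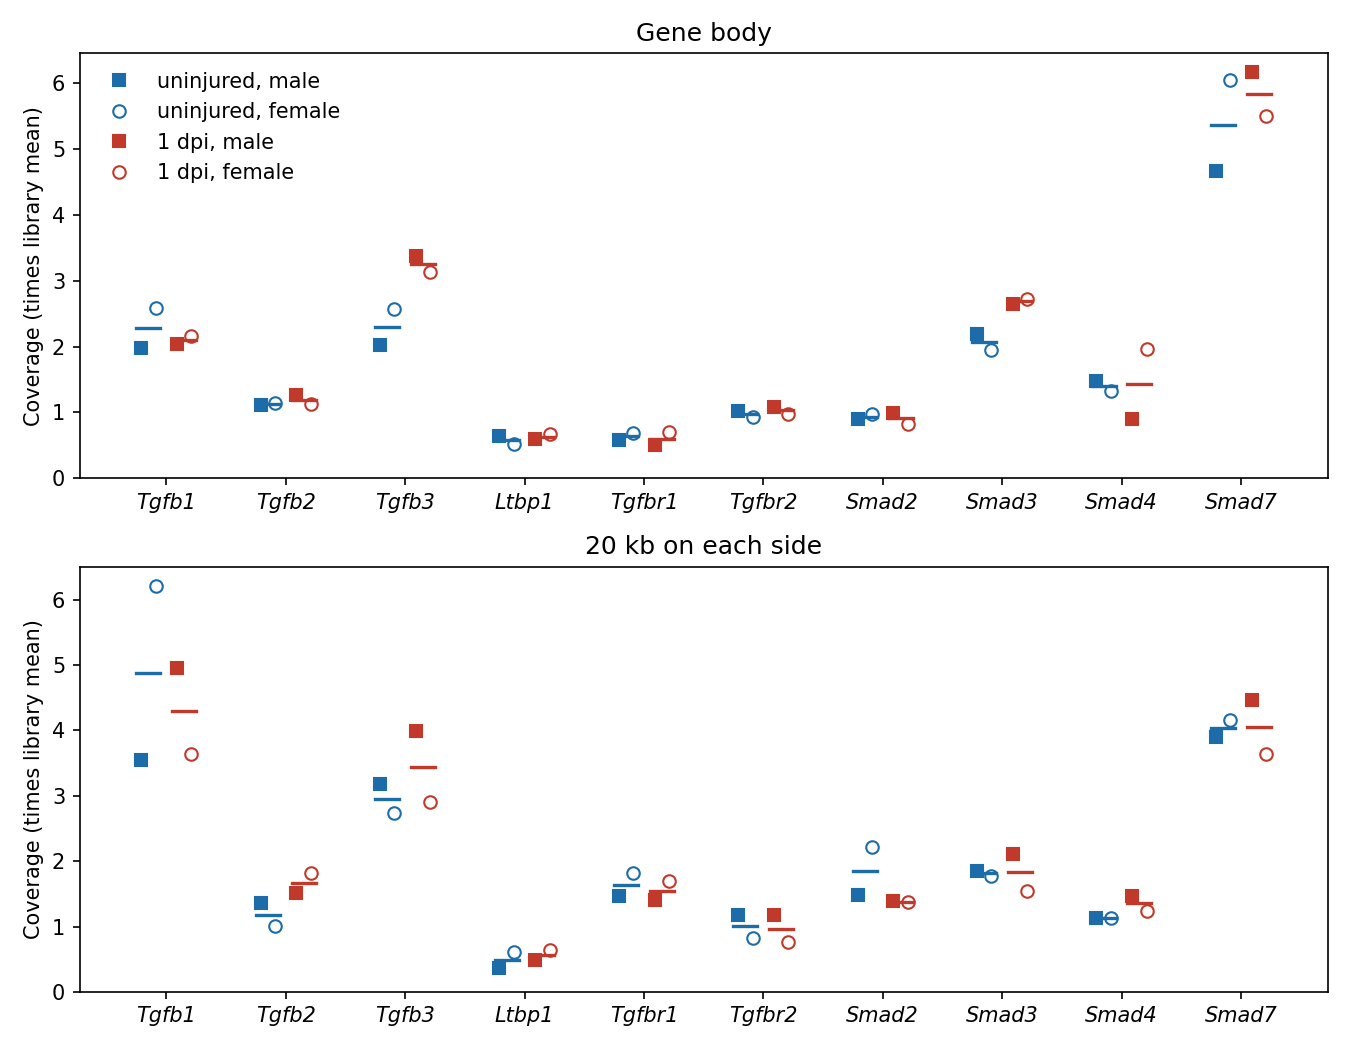
Gene body coverage (top) and coverage of the 20 kb on each side (bottom) of the 10 genes, in times the library mean, for the 4 SOX9 libraries with means of 2 as bars. Gene bodies of Tgfb3 and Smad3 and flanks of Tgfb2 and Smad4 have both 1 dpi libraries above both uninjured ones, and Smad2 flanks both below.

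Smad4, the common partner of the receptor-activated SMADs, lies at chr18:73639009-73703780 on the minus strand. Its promoter measured 0.213, 9.38, 4.72 and 6.28. The uninjured male value rested on 1 fragment and the uninjured female on 53, so the largest log2 change among the member promoters, 1.16 ± 0.67 (SE; limma adjusted p = 1.00), depended on that library: without the uninjured male it was -0.73. The gene body split the 1 dpi pair, at 1.47, 1.32, 0.902 and 1.96. Its flanks did not overlap, at 1.13, 1.13, 1.47 and 1.23 (log2 change 0.18 ± 0.18, SE; limma adjusted p = 1.00), and the change was 0.088 without the 1 dpi male and 0.275 without the 1 dpi female.

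Smad7, the inhibitory SMAD and itself a TGF-β target gene, had the highest gene body level of the 10 genes in each library. Its whole locus had the highest mean of the 4 libraries, although that of Tgfb1 was higher in the uninjured female, at 5.15 against 5.03. Across chr18:75367529-75395935 the gene body measured 4.68, 6.06, 6.18 and 5.50, and flanks measured 3.91, 4.16, 4.47 and 3.64. The promoter measured 12.1, 26.3, 19.8 and 16.3, and in all 3 windows the groups overlapped. Its gene body level stood at percentile 94.4 of all coding genes, while Smad3 stood at 74.4, Tgfb3 at 79.5, Tgfbr1 at 25.4 and Ltbp1 at 25.1.

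In order of mean promoter level over the 4 libraries, the 10 genes ran Smad2 (23.9 ± 8.89), Smad7 (18.6 ± 5.99), Tgfbr1 (13.8 ± 3.64), Tgfb3 (11.1 ± 3.72), Smad3 (6.63 ± 2.26), Tgfb2 (5.90 ± 1.00), Smad4 (5.15 ± 3.82), Tgfb1 (4.19 ± 2.02), Tgfbr2 (2.19 ± 0.652) and Ltbp1 (1.38 ± 1.46; SD, n = 4). Each gene differed from the next in that order by less than the larger of their SDs, except Tgfb3 from Smad3, and the ranges of that pair overlapped. The male and female libraries moved in opposite directions at 8 of the 10 promoters, 7 gene bodies and 3 flanks, beside 63.75%, 50.8% and 59.7% of all genes tested. Whether the sexes differ was not tested here.

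At finer scale, the 10 loci held 1345 tiles of 1 kb. Tiles at or above 5 times the library mean in both libraries numbered 36 in the uninjured and 41 in the 1 dpi condition, of which 23 were shared. That is 2.68% and 3.05% of the tiles, beside 1.31% and 1.34% of 2725511 tiles in the genome. The genome share also counts tiles far from genes. Smad7 held 14 and 17 of them, Tgfb1 8 and 8, Tgfb3 6 and 5, and Smad3 2 and 5, while Ltbp1 and Tgfbr2 held none. None of those at Tgfb1 lay in the gene itself. They lay before its start within B9d2, or beyond its end and mostly within Ccdc97. At Tgfb3, the high tiles beginning at chr12:86082001, 86085001 and 86098001 lay within Ift43. limma called 0.0398% of the 150752 tiles tested higher and 0.00663% lower at 1 dpi, and 0 of the 157 tested tiles in the loci; at an unadjusted p under 0.05 there were 4 higher and 3 lower in the loci, beside 2.2% and 1.92% of all tested tiles. Groups did not overlap in 31 higher and 18 lower tiles of the 157, and in 7 higher and 4 lower of the 34 tested at Smad3, beside 15.4% and 16.5% of all tested tiles.

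By the mean of 4 libraries, the tile with the most coverage lay at the gene start for Tgfb2, Tgfb3, Tgfbr1, Smad2 and Smad7. In the uninjured male, higher tiles lay elsewhere in the loci of Tgfb3 (12.1 at chr12:86082001-86083000) and Smad7 (15.3 at chr18:75348001-75349000). In the 1 dpi male, the Smad7 tile next to the start tile was higher, at 20.5. For Smad3 the first kilobase before the start and an intronic tile (chr9:63743001-63744000) had equal means of 8.42. For Tgfb3, the start tile (chr12:86079001-86080000) measured 7.10, 13.7, 21.9 and 15.7, with both 1 dpi libraries above both uninjured ones. For Tgfbr1 (chr4:47353001-47354000) it measured 16.1, 21.7, 13.4 and 11.4, in the opposite order. The highest tile of the Tgfb1 locus, at 22.9, 29.7, 21.2 and 14.7, was not at Tgfb1 but at chr7:25680001-25681000 by the start of its neighbour B9d2. For Tgfbr2 and Ltbp1 the highest tiles by that mean were intronic and shallow, with 2.78, 5.27, 4.79 and 3.12, and 0, 2.43, 10.7 and 1.57.

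Within Smad4, the highest tile by the mean of the 4 libraries was intronic, at chr18:73690001-73691000, and measured 14.9, 11.01, 6.42 and 24.4. The tile beside it, chosen after its values were seen, had the smallest adjusted p of the loci. It measured 21.4, 8.84, 0.709 and 6.66, with both 1 dpi libraries the lower ones (log2 change -2.28 ± 0.64, SE; limma adjusted p = 0.298). These values rested on 8, 20, 1 and 6 fragments, so the size of the change is poorly known. Within Smad3, 4 intronic tiles, also chosen after their values were seen, had both 1 dpi libraries above both uninjured ones and above 5 times the library mean. Only these higher Smad3 tiles are described. The furthest apart of them, at chr9:63701001-63702000, measured 2.302, 2.135, 10.4 and 6.40 (log2 change 1.68, limma adjusted p = 0.999), on 1, 6, 11 and 6 fragments. Another, at chr9:63755001-63756000 and 2.5 kb into the gene, measured 4.28, 1.36, 6.89 and 6.06, on 2, 3, 7 and 4 fragments. The size of both changes is therefore poorly known as well.

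**Figure D3:**
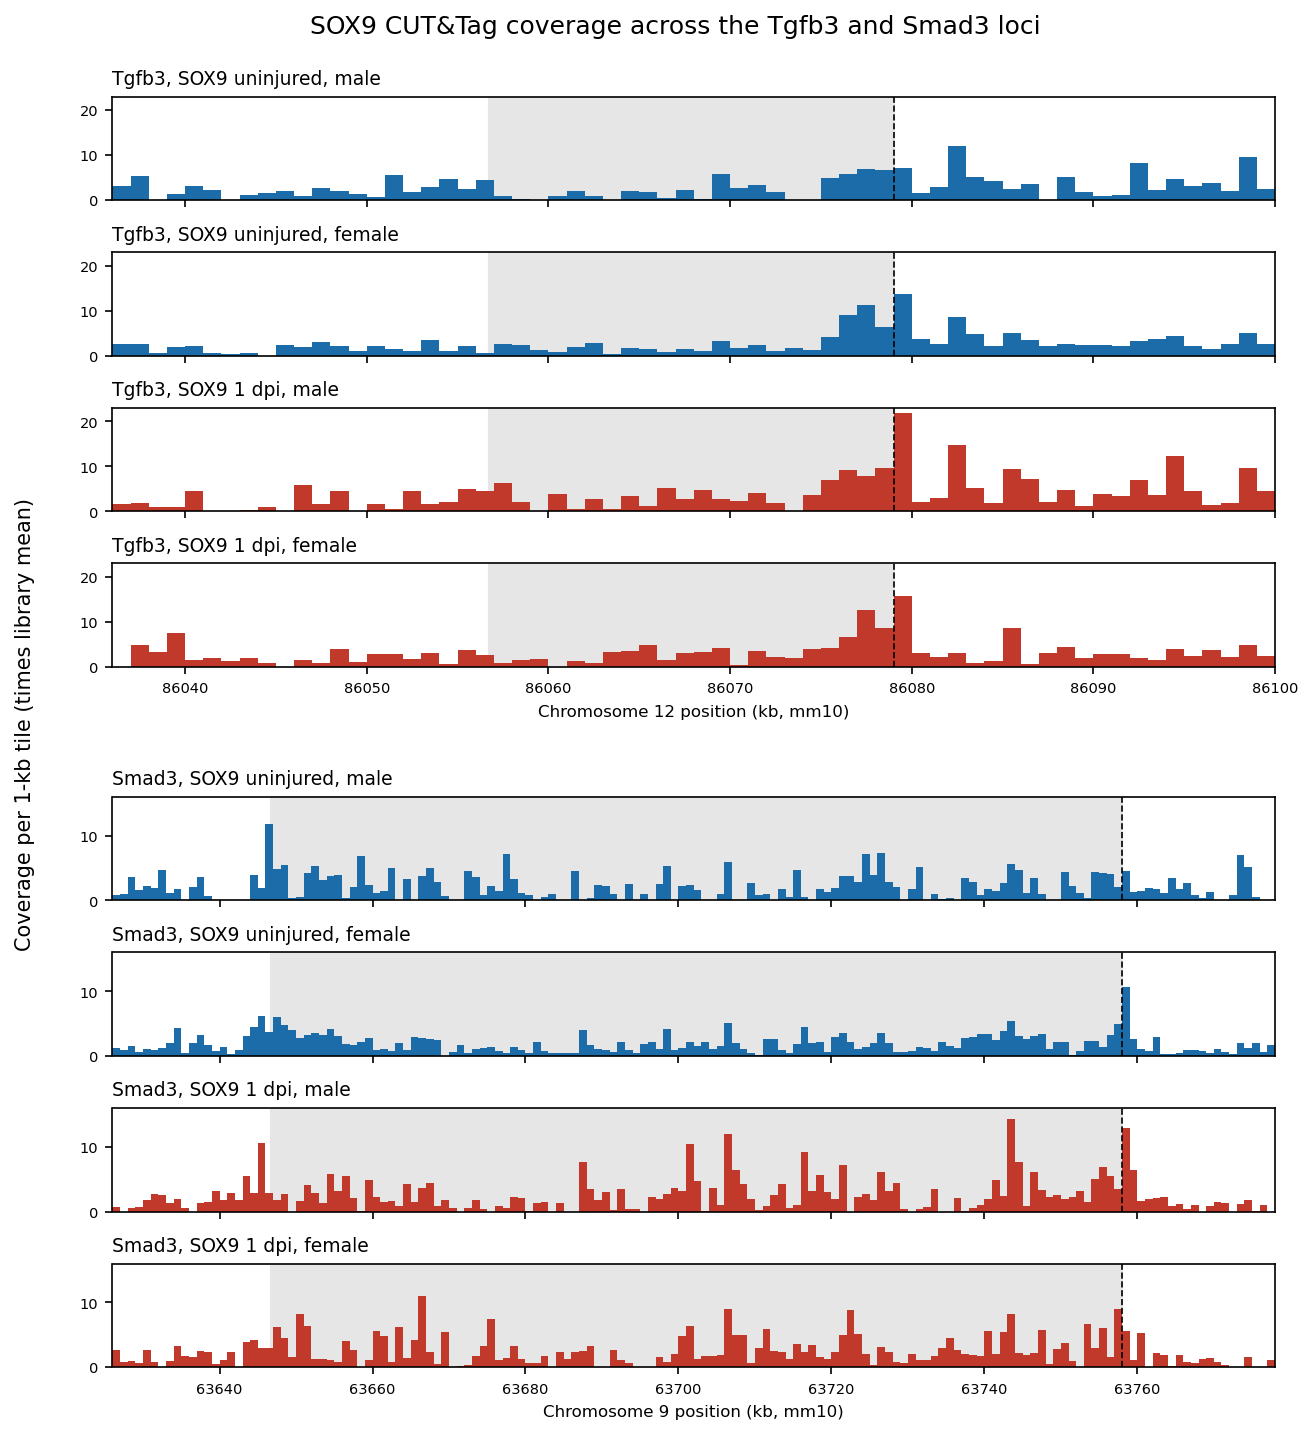
SOX9 CUT&Tag coverage in 1-kb tiles across the Tgfb3 and Smad3 genes (grey) with 20 kb on each side, in times the library mean, for the 4 SOX9 libraries; dashed lines mark the start sites, and both genes run right to left. Mean coverage of Tgfb3 is highest at its start, where the tile measures 7.10 and 13.7 uninjured and 21.9 and 15.7 at 1 dpi. That of Smad3 spreads over many intronic tiles.

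Promoter sequence was at hand for 6 of the 10 genes in a RefSeq table (GRCm38.p6), and Tgfb3, Smad2, Smad4 and Smad7 had no entry. In the 250 bases before the start, GC content was 53.6% in Tgfb2, 74.8% in Tgfbr1, 75.2% in Tgfb1 and 69.2% in Smad3, beside a median of 52.4% over 32841 promoters. The SOX core was searched as ACAATG or ACAAAG on both strands and was present in 25.2% of these promoters. It occurred 1 time each in Tgfb2 and Tgfbr1 and 0 times in Tgfb1 and Smad3. The letters CAGAC of the SMAD box were in 42.2% of all promoters, and occurred 2 times in Tgfb2 and 0 times in Tgfbr1, Tgfb1 and Smad3. The GC box, GGGCGG, was in 32.75% of promoters, and occurred 2 times in Tgfbr1, 5 in Tgfb1, 2 in Smad3 and 0 in Tgfb2. Other entries did not begin at the principal start. Ltbp1 had 2, at 75005529 and 75178781, with 56.8% and 50.8% GC, the SOX core 1 and 2 times and the SMAD box 1 and 2 times. Tgfbr2 had 1, at 3 bases from that start, with 58.4% GC, the SOX core 0 times and the SMAD box 1 time. A second Tgfbr1 entry, at 47386216, held the SOX core and the SMAD box 1 time each and the GC box 0 times. A match describes letters, not a site. The stretches below show a ligand, a receptor and a SMAD promoter, 5′ to 3′ on the strand of the gene and with the SOX core in capitals.
Tgfb2, chr1:186705990-186706239, minus strand: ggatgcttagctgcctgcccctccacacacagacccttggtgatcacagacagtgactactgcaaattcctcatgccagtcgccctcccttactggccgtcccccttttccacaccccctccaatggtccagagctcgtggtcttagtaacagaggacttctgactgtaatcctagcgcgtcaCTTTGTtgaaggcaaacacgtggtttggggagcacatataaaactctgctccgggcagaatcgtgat
Tgfbr1, chr4:47352972-47353221, plus strand: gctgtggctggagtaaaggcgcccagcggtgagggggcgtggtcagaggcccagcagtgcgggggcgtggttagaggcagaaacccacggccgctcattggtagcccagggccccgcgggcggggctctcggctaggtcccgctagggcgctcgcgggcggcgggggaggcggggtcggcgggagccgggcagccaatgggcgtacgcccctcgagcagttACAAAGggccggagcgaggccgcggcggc
Smad3, chr9:63757995-63758244, minus strand: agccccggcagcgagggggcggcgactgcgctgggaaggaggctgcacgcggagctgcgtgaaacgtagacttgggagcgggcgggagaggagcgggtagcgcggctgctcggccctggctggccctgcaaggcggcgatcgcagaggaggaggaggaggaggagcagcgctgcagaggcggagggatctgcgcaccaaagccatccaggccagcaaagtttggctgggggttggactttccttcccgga

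The Smad3 introns are those of the 4 tiles described above, which were high in both 1 dpi libraries. Within each tile the 300 bases of highest coverage outside exons were read from the plus strand. The stretch at chr9:63701646-63701945 measured 4.97, 3.16, 15.9 and 9.45 and held the SOX core 1 time, while the stretch at chr9:63755209-63755508 measured 3.63, 2.0998, 10.9 and 10.7 and also held it 1 time. The stretch at chr9:63706596-63706895 measured 13.2, 2.61, 16.9 and 8.97 and held it 1 time, and the stretch at chr9:63743266-63743565 measured 6.97, 3.10, 15.9 and 8.73 and held it 0 times. Central 300-base stretches of 146810 of the 150752 tested tiles held the core in 30.8%. Those tiles had been kept for a mean of at least 3, but the central stretches were not placed by coverage. The 4 Smad3 stretches were placed at the highest coverage, in tiles chosen for being higher at 1 dpi. Their count is therefore not compared with this share.
Smad3 intron, chr9:63701646-63701945, plus strand: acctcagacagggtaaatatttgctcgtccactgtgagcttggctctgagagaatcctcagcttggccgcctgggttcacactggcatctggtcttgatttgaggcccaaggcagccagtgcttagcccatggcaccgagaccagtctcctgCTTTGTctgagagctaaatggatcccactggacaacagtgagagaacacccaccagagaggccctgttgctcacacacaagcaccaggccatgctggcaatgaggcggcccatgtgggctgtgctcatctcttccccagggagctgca
Smad3 intron, chr9:63755209-63755508, plus strand: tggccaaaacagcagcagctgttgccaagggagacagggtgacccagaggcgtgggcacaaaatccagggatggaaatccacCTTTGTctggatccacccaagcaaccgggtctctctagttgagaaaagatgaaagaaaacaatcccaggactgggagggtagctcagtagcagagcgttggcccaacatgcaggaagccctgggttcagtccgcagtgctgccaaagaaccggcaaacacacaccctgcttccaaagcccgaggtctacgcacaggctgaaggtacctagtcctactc
Smad3 intron, chr9:63706596-63706895, plus strand: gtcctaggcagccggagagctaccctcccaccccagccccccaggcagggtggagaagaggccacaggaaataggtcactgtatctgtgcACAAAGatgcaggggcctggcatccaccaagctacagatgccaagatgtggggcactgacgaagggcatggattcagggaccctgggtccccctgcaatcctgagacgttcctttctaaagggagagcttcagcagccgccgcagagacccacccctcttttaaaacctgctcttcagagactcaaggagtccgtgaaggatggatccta
Smad3 intron, chr9:63743266-63743565, plus strand: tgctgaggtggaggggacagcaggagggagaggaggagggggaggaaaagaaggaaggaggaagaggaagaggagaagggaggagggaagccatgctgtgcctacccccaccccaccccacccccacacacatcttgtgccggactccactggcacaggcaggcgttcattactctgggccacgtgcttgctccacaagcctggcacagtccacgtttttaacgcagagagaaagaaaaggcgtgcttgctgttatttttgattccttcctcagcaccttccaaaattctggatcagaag

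The remaining pathway was read from 70 further genes in 6 lists. In limma 0 of the 65 tested promoters, 0 of 59 gene bodies and 0 of 63 flanks were called, while at an unadjusted p under 0.05 there were 3, 4 and 3 higher and 0, 1 and 0 lower. In percent that is 4.62, 6.78 and 4.76 higher and 0, 1.695 and 0 lower, beside the shares over all genes given above. Their median log2 changes were 0.09, 0.03 and -0.04. Groups did not overlap in 9 promoters higher and 11 lower, in 12 gene bodies higher and 12 lower, and in 12 flanks higher and 11 lower. These are 13.85% and 16.92% of the promoters, 20.34% of the gene bodies in each direction, and 19.05% and 17.46% of the flanks. Over all genes the shares were 8.27% and 14.8%, 15% and 18.3%, and 11.9% and 15.4%. In promoters, to be read against the same 8.27% and 14.8%, there were 1 higher and 4 lower of 11 other ligands, 0 and 1 of 11 other receptors, 2 and 1 of 4 other SMADs, 1 and 3 of 10 latency and activation genes, 1 and 1 of 14 inhibitors and regulators, and 4 and 1 of 15 transcripts known to respond to TGF-β. The median promoter log2 changes in that order were -0.04, 0.16, 0.06, 0.10, -0.15 and 0.42. The genes named next had the largest changes without overlap in each direction. Smad6, an inhibitory SMAD, had promoter levels of 1.04, 2.60, 6.54 and 5.63, Fn1, encoding fibronectin, 0.958, 0.282, 2.71 and 2.58, and Snai1 0.342, 4.72, 4.98 and 5.02. All 3 were higher in both 1 dpi libraries, at limma p of 0.018, 0.046 and 0.041 and an adjusted p of 1.00 each. The uninjured Fn1 values rested on 1 and 2 fragments. The Snai1 value of the uninjured male rested on 1 fragment, and its log2 change of 1.39 was 0.0735 without that library and 2.71 without the uninjured female.

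Lower in both 1 dpi libraries were the promoters of the ligands Bmp6, at 3.03, 1.498, 0.368 and 0.577, and Bmp2, at 1.76, 3.34, 1.048 and 0.275, and of the activin inhibitor Fstl3, at 5.66, 8.29, 3.10 and 3.94. None of these was called, at limma p of 0.073, 0.069 and 0.18. The 1 dpi values rested on 1 and 1 fragments for Bmp6 and on 2 and 1 for Bmp2, so their size is poorly known, and the Bmp2 log2 change of -1.43 was -0.93 without the 1 dpi female. In gene bodies, Tgif1 measured 0.598, 1.37, 2.57 and 1.84, Inhbb 1.24, 1.06, 2.60 and 2.01, and the cell-cycle inhibitor Cdkn1a 3.70, 4.36, 7.36 and 6.15, all higher at 1 dpi. The Tgif1 log2 change of 0.90 was 0.52 without the uninjured male. The lower ones were Emilin1 at 6.86, 10.1, 5.69 and 4.08 (log2 change -0.73, and -0.47 without the uninjured female), the collagen gene Col1a1 at 2.03, 2.48, 1.39 and 1.73, and Nog at 1.24, 1.69, 0 and 0, where 8 fragments were counted in all. The Nog zeros allow up to 4.32 in the male and 4.59 in the female by the 3-fragment floor, above both uninjured values, so a lower level was not detectable at this depth. Nog was called by limma only with all 8 libraries in the fit (adjusted p = 0.0237, against 0.429 to 1.00 in its other settings).

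In flanks, 7 of the 13 tested transcripts known to respond to TGF-β were higher and 2 lower without overlap, 53.8% and 15.4% beside the background of 11.9% and 15.4%; their median log2 change was 0.19. This was the list and window with the largest share of higher genes, picked from 6 lists in 3 windows after the values were seen. In flanks the other lists had 3 higher and 1 lower of 11 ligands, 0 and 3 of 11 receptors, 1 and 0 of 4 SMADs, 1 and 3 of 11 latency and activation genes, and 0 and 2 of 13 inhibitors and regulators. In the same window the astrocyte marker sum was higher in both 1 dpi libraries as well. Without Aldh1l1, its highest gene by mean, it was 6.92, 5.89, 7.33 and 7.23. The blood leukocyte sum was also higher in both, at 1.63, 1.445, 1.82 and 2.63, although only 1 of its 4 markers passed the minimum level. Without Cd3e that sum was 1.02, 0.857, 1.07 and 1.82. The part of these cell types in this count was not tested. In gene bodies the responding transcripts had 2 higher and 1 lower of 11, beside 15% and 18.3% of all genes. The flanks of Tgfbi, a TGF-β-induced matrix gene, measured 1.63, 1.86, 2.99 and 2.94 (log2 change 0.63 ± 0.23, SE; limma adjusted p = 1.00). Fn1 flanks measured 0.460, 0.542, 0.790 and 1.09, and those of Acta2, the smooth muscle actin gene, 0.464, 0.467, 0.800 and 0.908. The largest lower changes over all lists were those of Tagln, of this list, at 4.54, 5.20, 3.98 and 3.46, and of 2 genes of other lists. The inhibitor Grem1 at 0.991, 0.577, 0.447 and 0.431 and the latency gene Emilin1 at 3.75, 4.97, 3.46 and 3.19 were also lower in both 1 dpi libraries. The log2 change of Grem1, -0.43, was -0.20 without the uninjured male, and that of Emilin1, -0.33, was -0.15 without the uninjured female. The flank call for Tgfbi came only with scaling by the mean of the flanks themselves (adjusted p = 0.0253, against 0.130 to 1.00 in its other settings), a scaling chosen after seeing the data.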

How the data were processed

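The authors demultiplexed paired-end reads, mapped them to mm10 with Bowtie2 2.5.4, removed duplicates with Picard 3.4.0 and called peaks with SEACR 1.3, as their methods and processing notes state. The deposited file holds unscaled coverage (signal) of 8 libraries. Fragments were rebuilt from its rises and falls. Window means over the library mean were tested as log2(value + 0.5) with limma 3.58.1 in R 4.3.3, with a mean-variance trend, over all coding genes of GENCODE M21 with a mean of at least 0.5 (tiles at least 3). p-values were adjusted by Benjamini-Hochberg over all windows of a kind. Such p-values reflect only variation among these libraries, pooled over windows. In promoters and flanks the standard error followed the trend over all genes at a given level, not the spread of the gene itself. At promoters it was 0.65 for Tgfb2, where uninjured levels had an SD of 0.279. For Smad4 it was 0.67, with an SD of 6.49. Tested on simulated data, the trend on the mean recovered no change in gene bodies, so a trend on fragment number was added as an alternative after seeing the data. Named pathway genes were those called, plus per window the 3 highest and the 3 lowest log2 changes among those whose groups did not overlap. The 10 genes and all lists were chosen with earlier results of these data known. Alternatives covered scaling, pseudocount, filter, windows, depth, sex block and each library left out. No sequence of chromosome 18 was used or printed.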

Additional observations from a re-analysis of the deposited data

Results flagged for a closer look

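In some windows coverage was higher at 1 dpi in 1 sex and lower in the other, with 1 library per sex and condition. The values below are the log2 change in males minus that in females, and none of these differences was tested. Over all genes tested the median of the same value was 0.97 in promoters, 0.11 in gene bodies and 0.23 in flanks, with median promoter changes of 0.40 in males and -0.53 in females. In promoters they were 1.80 for Tgfb1, 0.63 for Tgfb2, 4.71 for Ltbp1, 0.95 for Tgfbr2, 1.64 for Smad2, 1.28 for Smad3, 3.41 for Smad4 and 1.36 for Smad7. In gene bodies they were 0.25 for Tgfb1, 0.15 for Tgfb2, -0.28 for Ltbp1, -0.13 for Tgfbr1, 0.26 for Smad2, -0.93 for Smad4 and 0.495 for Smad7. In flanks they were 1.13 for Tgfb1, 0.30 for Smad3 and 0.35 for Smad7. A log2 change under 0.01 in size was taken as even, a limit chosen after seeing that the male Tgfbr1 promoter values were equal.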

How the results depend on the processing

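No member was called under any of 160 promoter, 150 gene-body and 160 flank values from other settings; the smallest adjusted p were 0.563, 0.686 and 0.210. The sign turned in 18, 14 and 20 of them. The causes were not tested. Promoters: Tgfb2 -0.00832 and Smad7 -0.0328 with trimmed-mean scaling, Ltbp1 0.0304 at equal fragment number and 0.85 at the first start of the gene, Tgfb2 -0.15 and Smad7 -0.11 within 0.5 kb. Gene bodies: Smad2 0.00508 at equal fragment number, Smad2 0.01415 and Smad4 0.01775 scaled by the mean of the same windows (chosen after seeing the data). Flanks: Smad7 -0.0352 with trimmed-mean scaling, Smad3 0.000597 with a pseudocount of 2, Tgfbr1 0.11, Smad3 0.11 and Smad7 -0.0179 at equal fragment number, Smad3 0.0547 scaled by the same windows, Smad3 0.23 within 10 kb, and Tgfb1 0.0895 with other coding genes masked.

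Leaving out each library in turn, a lone library being assumed to vary like the other group, log2 changes spanned 0 in promoters for Tgfb1 -0.59 to 1.102, Tgfb2 -0.24 to 0.30, Tgfbr2 -0.71 to 0.19, Smad2 -0.56 to 0.75, Smad3 -0.014 to 1.12, Smad4 -0.73 to 3.06, Smad7 -0.54 to 0.55 and Ltbp1 -1.64 to 0.99, in gene bodies for Tgfb1 -0.25 to 0.0643, Tgfb2 -0.00877 to 0.12, Tgfbr1 -0.17 to 0.0798, Tgfbr2 -6.05e-05 to 0.11, Smad2 -0.11 to 0.057, Smad4 -0.44 to 0.38, Smad7 -0.0505 to 0.29 and Ltbp1 -0.0186 to 0.15, and in flanks for Tgfb1 -0.50 to 0.23, Tgfb3 -0.0181 to 0.38, Tgfbr1 -0.18 to 0.058, Tgfbr2 -0.25 to 0.16, Smad3 -0.18 to 0.17, Smad7 -0.13 to 0.13 and Ltbp1 -0.0565 to 0.28.

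Other log2 changes kept their sign over all alternatives but moved by over 1.5 times. Their ranges were, in promoters, Tgfb3 0.44 to 1.13, Tgfbr1 -0.69 to -0.10, Smad6 1.08 to 2.64, Fn1 0.84 to 2.111, Snai1 0.0735 to 2.71, Bmp6 -1.99 to -0.76 and Bmp2 -2.01 to -0.77, in gene bodies Smad3 0.21 to 0.38, Tgif1 0.501 to 1.29, Inhbb 0.45 to 1.302, Nog -3.96 to -0.55, Emilin1 -0.99 to -0.47 and Col1a1 -0.55 to -0.26, and in flanks Tgfb2 0.21 to 0.52, Smad2 -0.53 to -0.078, Smad4 0.088 to 0.275, Tgfbi 0.41 to 0.73, Fn1 0.23 to 0.78, Acta2 0.21 to 0.75, Grem1 -0.67 to -0.19, Tagln -0.45 to -0.16 and Emilin1 -0.52 to -0.15. Both 1 dpi values of the Nog gene body were 0, so its sign could not turn and its range shows no lower level.

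Of all genes, 2 promoters were called, and 0 with trimmed-mean scaling, with all 8 libraries, with no filter or within 0.5 kb, 1 with a pseudocount of 2, with sex as a block, at equal fragment number or at the first start, 11 scaled by the same windows, and 0 to 0 with a library left out. Gene bodies called numbered 0, and 9 with all 8 libraries. Flanks called numbered 7, and 0 with trimmed-mean scaling or all 8 libraries, 4 with sex as a block, 40 scaled by the same windows, 2 without the trend, 3 within 10 kb, 1 with other genes masked, and 0 to 40 with a library left out. Tiles called numbered 70, and 29 with trimmed-mean scaling, 0 with all 8 libraries, 29 with sex as a block, 38 at equal fragment number, 37 at a minimum of 5, and 7 to 617 with a library left out. High tiles in the loci numbered 86 uninjured and 108 at 1 dpi at 3 times the mean, and 8 and 8 at 10 times. Counting error alone limits the shallow promoters: 1 fragment across the promoter of the uninjured male library stands for 0.674 times the library mean. Equal fragment number means thinning each SOX9 library to 1891276 fragments; fragment length was not matched, with a mean of 223 bp in the uninjured female and 256 to 264 bp in the others.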
